A study of Homo sapiens with 4 samples.

Results

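LIN28B and IGF2BP1 are protein-coding genes for a pair of oncofetal RNA-binding proteins, and their own RNAs were 2 of the 2637 RNAs whose chromatin contacts were scored in this GRID-seq study. They were taken by the RNA symbol in the deposited table, and the genes were proposed with earlier results of these data known. GRID-seq ligates an RNA to nearby DNA through a linker inside fixed nuclei, so each entry names an RNA and a regulatory element (an active enhancer or an active promoter) that it lay next to. The cells were K562, a human leukaemia line with the BCR-ABL1 fusion, either with wild-type RUNX1 (WT, 2 libraries) or with RUNX1 R320*, the same transcription factor of blood development cut short by a stop codon (2 libraries). All 4 libraries had the same double fixation, and the labels say neither how many clones the mutant line came from nor whether the 2 libraries of each kind were grown apart. The authors pooled each genotype into 1 score per connection, so every WT and R320* value below is a single pooled value with no SD or n of libraries, and no difference between the genotypes has a replicate check. A listed score was always above 1.2. A score of 0 was read as not listed, and sequencing depth is unknown.

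LIN28B blocks the maturation of let-7 microRNAs, which themselves repress LIN28B, IGF2BP1 and other growth genes. IGF2BP1 binds messenger RNAs such as those of MYC and IGF2 and keeps them from decay, and it belongs to the readers of m6A-modified RNA. Both genes are active in fetal blood progenitors, are mostly silent in adult ones, and are switched on again in some leukaemias and solid tumours. What was measured here is where their transcripts lay on chromatin, not how much RNA or protein the cells made, so more RNA and more contacts per RNA molecule cannot be told apart.

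LIN28B (ENSG00000187772.8) lies at chr6:104937026-105083332 and IGF2BP1 (ENSG00000159217.10) at chr17:48996558-49056145 (hg38). The RefSeq promoter table (GRCh38.p14) held 2 LIN28B starts, at positions 104940965 and 104957107 on the plus strand, and the 250 bases before each are shown because the elements at the gene lie differently to them. The element typed as LIN28B's promoter, chr6:104941501-104942453, lay past the first start, while the element typed as an enhancer, chr6:104951542-104961001, held the second. The ATG5 and CCNC promoters are shown with them. ATG5 held the only RUNX core motif among the promoters in LIN28B's elements, and CCNC was the promoter with LIN28B's highest score among those listed in R320* only. All are written 5′ to 3′ on the gene's strand, with the motif in capitals.
LIN28B first start, chr6:104940715-104940964, plus strand: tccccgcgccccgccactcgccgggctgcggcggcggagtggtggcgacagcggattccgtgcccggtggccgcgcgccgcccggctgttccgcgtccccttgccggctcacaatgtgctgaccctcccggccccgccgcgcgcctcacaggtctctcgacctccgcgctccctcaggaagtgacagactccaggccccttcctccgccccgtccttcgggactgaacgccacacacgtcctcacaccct
LIN28B second start, chr6:104956857-104957106, plus strand: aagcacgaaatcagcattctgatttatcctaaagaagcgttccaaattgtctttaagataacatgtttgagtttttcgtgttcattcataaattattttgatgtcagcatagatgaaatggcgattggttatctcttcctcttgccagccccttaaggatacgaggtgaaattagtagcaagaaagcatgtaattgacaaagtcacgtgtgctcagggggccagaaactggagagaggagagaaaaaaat
ATG5, chr6:106325438-106325687, minus strand: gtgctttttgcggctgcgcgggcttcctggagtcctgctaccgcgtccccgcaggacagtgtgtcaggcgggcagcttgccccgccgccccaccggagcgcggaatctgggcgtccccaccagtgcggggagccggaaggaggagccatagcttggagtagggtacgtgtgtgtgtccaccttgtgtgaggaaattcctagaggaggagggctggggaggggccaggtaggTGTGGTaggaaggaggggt
CCNC, chr6:99568815-99569064, minus strand: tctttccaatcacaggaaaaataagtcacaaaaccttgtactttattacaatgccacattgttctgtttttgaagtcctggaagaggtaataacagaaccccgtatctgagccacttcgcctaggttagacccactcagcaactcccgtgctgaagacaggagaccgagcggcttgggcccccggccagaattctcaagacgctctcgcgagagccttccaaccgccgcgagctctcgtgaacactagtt
The first LIN28B stretch was 73.6% G and C and the second 38.4%. The motif searched was TGTGGT on either strand, and in ATG5 its first base lay 19 bases before the start. In whole 300-base promoters (250 before the start and 50 after), 1 of 12 that overlapped LIN28B's elements held the motif (8.33%) and 1 of 22 of those for IGF2BP1 (4.55%), against 13.1% of all 35116 promoters in the table. Most of the typed promoters held a RefSeq promoter, 6 of 11 for LIN28B and 12 of 22 for IGF2BP1. So did 2 of 37 and 2 of 46 typed enhancers, and these included the ones at LIN28B, PRDM1 and HOXB1.

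Both RNAs had more listed connections in R320*, and for each the excess was 18. LIN28B RNA met 26 elements in WT and 44 in R320* (1.69-fold, log2 ratio 0.76). IGF2BP1 RNA had 46 in WT and 64 in R320* (1.39-fold, 0.48). Neither reached 2-fold, which 0.619% of 1293 RNAs did in that direction. These 1293 were the RNAs listed in both genotypes with a mean of at least 25 connections. RNAs listed in 1 genotype only are left out of this background, whatever their number. More connections in R320* were common, with 58.5% of the 1293, and by log2 ratio LIN28B was in place 28 and IGF2BP1 in place 127. These places are a description, since the genes were known to have higher numbers when they were picked.

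**Figure D1:**
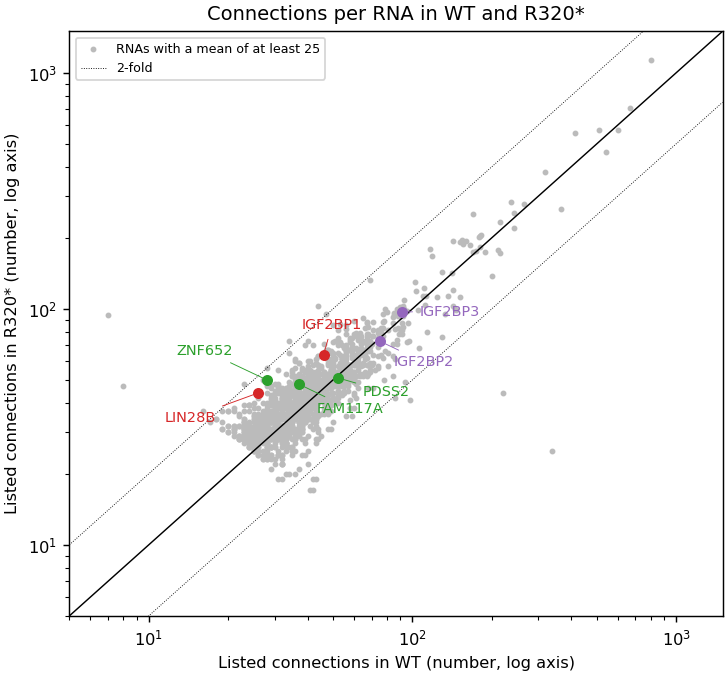
Number of listed connections per RNA in WT (x axis) and R320* (y axis), both on log axes. Each grey point is 1 of 1293 RNAs listed in both genotypes with a mean of at least 25. The solid line marks equal numbers and the dotted lines 2-fold. LIN28B and IGF2BP1 (red) lie above the line of equal numbers and within the 2-fold lines, as does ZNF652 (green), a neighbour of IGF2BP1, while PDSS2 (green) and the paralogues IGF2BP2 and IGF2BP3 (purple) lie close to equal.

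Most WT connections were also listed in R320*, beside a set listed in R320* only. Of LIN28B's 48 connections, 22 were shared by the genotypes, 22 were found with R320* alone and 4 with WT alone. Of IGF2BP1's 68, 42 were shared, and again 22 were found with R320* alone and 4 with WT alone. The part in R320* only was 45.8% for LIN28B and 32.4% for IGF2BP1, against 25.1% of all 87985 placed same-chromosome connections. The part in WT only was 8.33% and 5.88%, against 20.9%, and the part in both 45.8% and 61.8%, against 54.0%. All connections of both RNAs lay on the gene's own chromosome, with 0 in trans. A count of 0 in trans was seen for 53.5% of the 1293 RNAs listed in both genotypes with a mean of at least 25. Promoters made up 22.9% of LIN28B's and 32.4% of IGF2BP1's connections, against 34.0% in the table.

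The numbers of LIN28B differed far from the gene and hardly near it. Distance was taken from the nearest gene end. Under 1 Mb it had 16 connections in WT and 17 in R320*, but from 1 to 5 Mb it had 10 and 23, and over 5 Mb 0 and 4. Of the 25 connections from 1 to 5 Mb, 60.0% were in R320* only, against 37.8% of all connections at that distance. LIN28B's median distance was 734 kb in WT and 1600 kb in R320*, and the farthest element was 4.68 Mb away in WT and 24.8 Mb in R320*.

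For IGF2BP1 the numbers differed most at a middle distance. It had 15 connections under 100 kb in each genotype, and all 15 were the same elements, against 80.5% in both genotypes over all connections at that distance. From 100 kb to 1 Mb it had 28 in WT and 40 in R320*, from 1 to 5 Mb 3 and 5 with 0 in common, and over 5 Mb 0 and 4. Sharing was also low at these distances over all connections, with 32.6% in both genotypes from 1 to 5 Mb and 13.3% over 5 Mb. From 100 kb to 1 Mb, 31.7% of 41 connections were in R320* only, against 21.4% of all. Its median distance was 172 kb in WT and 354 kb in R320*. Of 1249 RNAs with placed connections in both genotypes and a mean of at least 25, 6.0% had a median distance at least 2-fold longer in R320*. Both LIN28B (2.18-fold) and IGF2BP1 (2.06-fold) were among them. A longer median of any size was seen for 59.0% of the 1249. A connection over 5 Mb in R320* with 0 in WT was seen for 12.9% of these RNAs, and the converse for 11.1%.

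**Figure D2:**
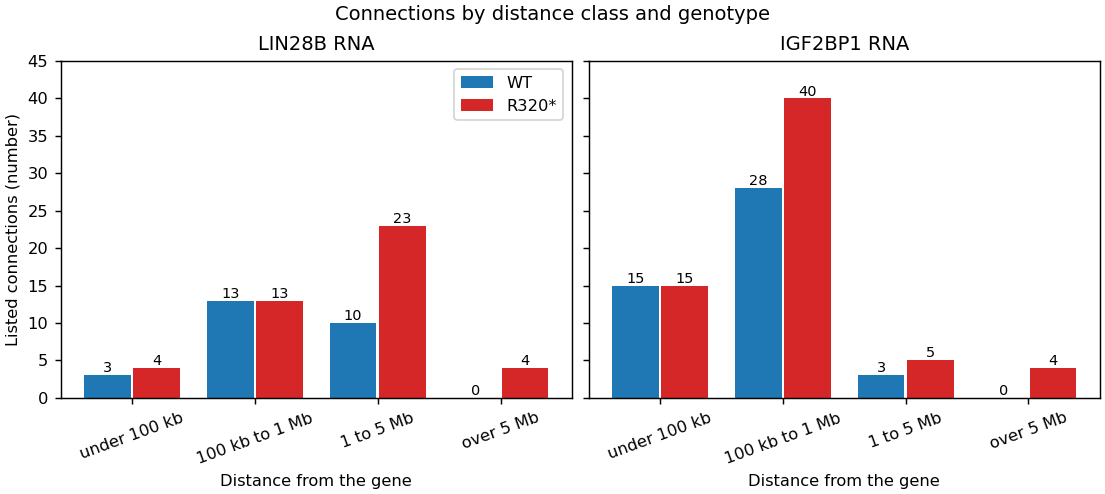
Number of listed connections (y axis, from 0) of LIN28B and IGF2BP1 RNA in 4 classes of distance from the gene (x axis), in WT (blue) and R320* (red). LIN28B's numbers differ from 1 Mb outward (10 and 23, then 0 and 4), and IGF2BP1's differ most from 100 kb to 1 Mb (28 and 40).

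At its own gene LIN28B RNA scored 2.41 in WT and 2.47 in R320* at its promoter element, and 2.15 and 2.17 at the enhancer element inside the gene. The medians over all local connections were 2.27 and 2.31. On the same stretch of chromosome 6 it met elements at its neighbours in both genotypes. These included the promoters of HACE1, a ubiquitin ligase (1.91 and 2.13), and of PREP, a prolyl endopeptidase (2.18 and 2.23), and a PREP enhancer (2.06 and 2.30). Beyond them it met a promoter of PRDM1, a transcriptional repressor gene, 1.01 Mb away with 2.11 and 2.13. Elements are named by their nearest gene, whatever the distance to it. The noncoding gene AL357522.1 was nearest to 4 enhancers 522 to 589 kb from LIN28B, and lay 71.9 to 139 kb from them. Of these, 3 were shared (1.23 to 1.71 in WT and 1.44 to 1.76 in R320*) and the other was in R320* only (1.26). All 3 elements near AL591518.1, 657 to 816 kb away, were shared, with 1.32 to 1.69 and 1.47 to 1.91. The farthest shared group was 3 enhancers 4.66 to 4.68 Mb away, with scores of 1.58 to 1.83 in WT and 1.5 to 1.85 in R320*. Their nearest gene was SIM1, a developmental transcription factor gene 113 to 124 kb from them.

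The 22 elements that LIN28B met in R320* only formed several clusters. The largest were 4 elements near BEND3, a DNA-binding repressor gene, 2.02 to 2.05 Mb away with scores of 1.46 to 1.81. Another was 3 enhancers at 1.80 to 1.84 Mb with 1.41 to 1.96. They lay 44.3 to 74.6 kb from CD24, which codes for a cell surface glycoprotein. The highest score was at the promoter of CCNC, the cyclin of the Mediator kinase module (2.08, 5.37 Mb away), followed by the CD24 enhancer at 1.96 and the TSTD3 enhancer beside CCNC (1.90). An enhancer inside PDSS2, a gene of coenzyme Q synthesis, had 1.89. Further out lay elements at the transcription factor gene FOXO3 (1.24) and the stress response gene SESN1 (1.43). Each had a neighbouring element in R320* only, at AFG1L (1.42) and at CEP57L1 (1.40). Single elements lay 34.1 kb from MAP3K7 (1.49, 14.5 Mb) and at TMEM244 (1.69, 24.8 Mb). Neighbouring elements met by 1 RNA are not independent of each other. The 4 elements in WT only were an enhancer near HACE1 (1.57), a promoter element near PRDM1 (1.66) and 2 enhancers near LINC02532 (1.39 and 1.53). Scores in R320* only ran from 1.24 to 2.08 with a median of 1.45, and the highest of them lay below both local scores.

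IGF2BP1 RNA had its highest score outside the gene. An enhancer near the noncoding gene AC091133.2 (chr17:48990554-48991184), 5.37 kb from the gene, had 3.85 in WT and 3.77 in R320*, values that 0.243% of listed WT scores and 0.284% of listed R320* scores reached. Its local elements were the promoter element at 2.48 and 2.47 and an intragenic enhancer at 2.91 and 2.89. On the higher-coordinate side followed 6 enhancers near B4GALNT2, a glycosyltransferase gene, all in both genotypes, with 1.79 to 2.79 in WT and 1.57 to 2.72 in R320*. On the other side, the 3 elements of ATP5MC1, an ATP synthase subunit gene, had 1.64 to 2.57 and 1.70 to 2.75. The 3 elements near the hormone gene GIP had 1.97 to 2.34 and 1.81 to 2.34. Of 4 elements at the autophagy receptor gene CALCOCO2, 3 were shared (1.37 to 2.24 and 1.48 to 1.99) and 1 was in R320* only (1.34). All 3 at NFE2L1, a stress response transcription factor gene 934 to 946 kb away, were shared, with 1.33 to 1.64 and 1.43 to 1.63.

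IGF2BP1 RNA also reached the HOXB cluster of body-axis homeobox genes, 363 to 490 kb away. Its elements at HOXB9 (2.12 and 2.05), HOXB7 (1.80 and 1.86) and HOXB8 (1.68 and 1.79) were in both genotypes, as were those at HOXB3 and HOXB6. The promoter elements of HOXB3 and HOXB6 had identical pairs of scores (1.2 and 1.26) although 53.0 kb apart. So did 1 enhancer of each (1.34 and 1.35). HOXB3 RNA also had equal scores at these promoter elements (2.07 and 2.02 at each) and at these enhancers (2.73 and 2.64 at each). So had ZNF652 RNA, in R320* only (1.24 and 1.48). The ties were thus not particular to IGF2BP1 RNA, and the tied elements are counted separately here. Whether each pair is 1 measurement was not tested. Such identical pairs made up 2.09% of shared connections in the table. At the far end of the cluster, all 4 enhancers nearest HOXB1 were in R320* only, with 1.21 to 1.41. The remaining elements in R320* only included 4 at the keratin genes KRT13, KRT15 and KRT19, 7.47 to 7.48 Mb away (1.29 to 1.89). Others lay at PHB, the prohibitin gene (1.33 and 1.48), NGFR (1.34 and 1.52), the kinase gene PDK2 (1.40 and 1.77) and SAMD14 (1.60). The 4 in WT only lay at SP6 (1.31), AC018521.3 (1.35), CDK5RAP3 (1.21) and DLX4 (1.30). In R320* only, scores ran from 1.21 to 1.89 with a median of 1.36, against 1.53 for all placed connections in R320* only.

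**Figure D3:**
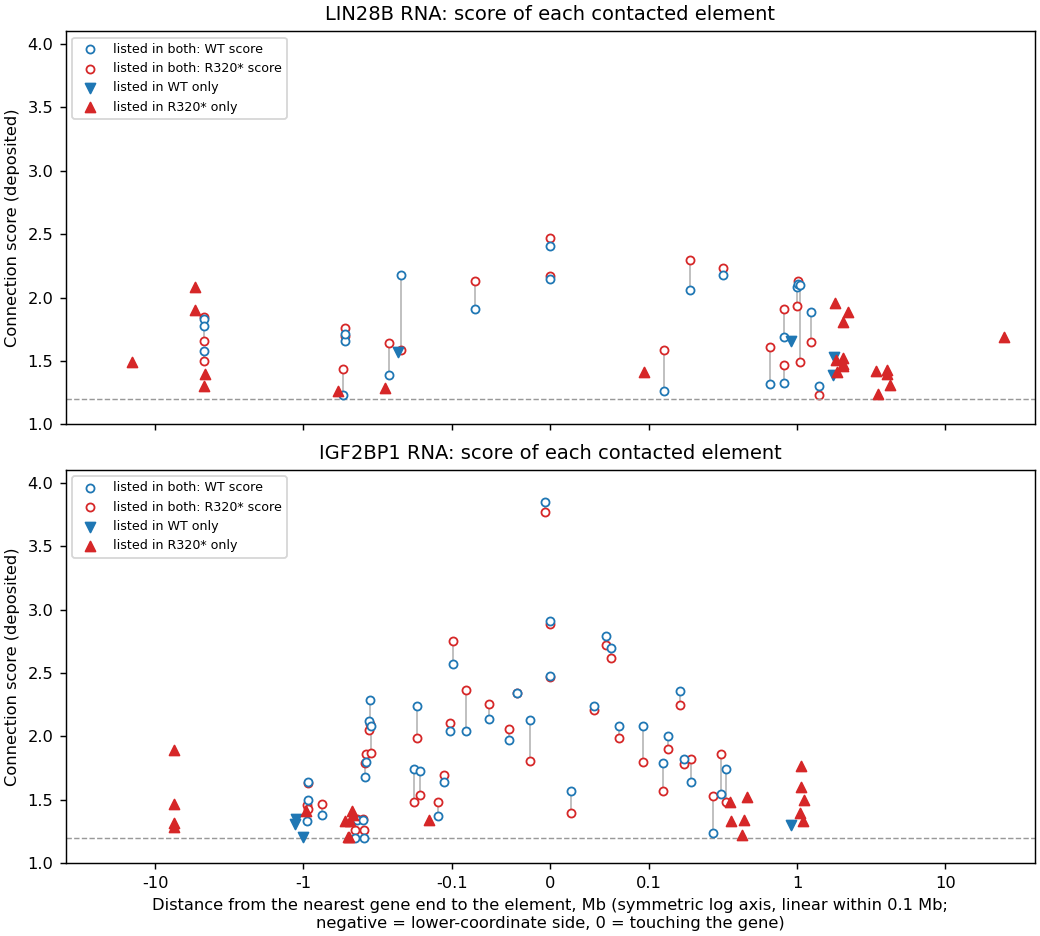
Deposited score (y axis) of every element met by LIN28B (top) and IGF2BP1 RNA (bottom) against its distance from the nearest gene end in Mb (x axis, symmetric log scale; lower coordinates to the left). Open circles joined by a grey line are the WT (blue) and R320* (red) scores of 1 element. Filled triangles are elements listed in 1 genotype, and the dashed line is the minimum of 1.2. From 1.80 Mb outward most of LIN28B's points are red triangles, and IGF2BP1's top point is 3.85.

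Scores of connections listed in both genotypes differed little. LIN28B's 22 had a median difference (R320* minus WT) of 0.0341 (SD 0.250 over connections), with 14 higher and 8 lower in R320*. IGF2BP1's 42 had a median of -0.0162 (SD 0.160), with 18 higher and 24 lower. Over all 52089 shared connections the median was 0.0394 (SD 0.247), and relative to it both genes' medians are below 0, at -0.00536 and -0.0556. No shared connection of either RNA differed by 1 unit, as 0.0998% of all did upward and 0.0749% downward. LIN28B's widest differences were downward, at an ATG5 enhancer (2.10 in WT, 1.49 in R320*) and at a HACE1 enhancer (2.18 and 1.59). Its largest upward one was at a POPDC3 enhancer (1.26 and 1.59). IGF2BP1's were at the promoter of the ubiquitin-conjugating enzyme gene UBE2Z (2.04 and 2.37) and at a GIP enhancer (2.13 and 1.81).

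Scores were lower at longer distance for IGF2BP1, and only weakly and unevenly so for LIN28B. LIN28B's shared connections had WT medians of 2.15 under 100 kb, 1.66 from 100 kb to 1 Mb and 1.86 from 1 to 5 Mb. Spearman's rho of score against distance was -0.75 in WT (46 connections) and -0.67 in R320* (64) for IGF2BP1, and -0.25 (26) and -0.27 (44) for LIN28B. These describe connections of 1 RNA in pooled libraries, which share their depth and, where close together, their reads.

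**Figure D4:**
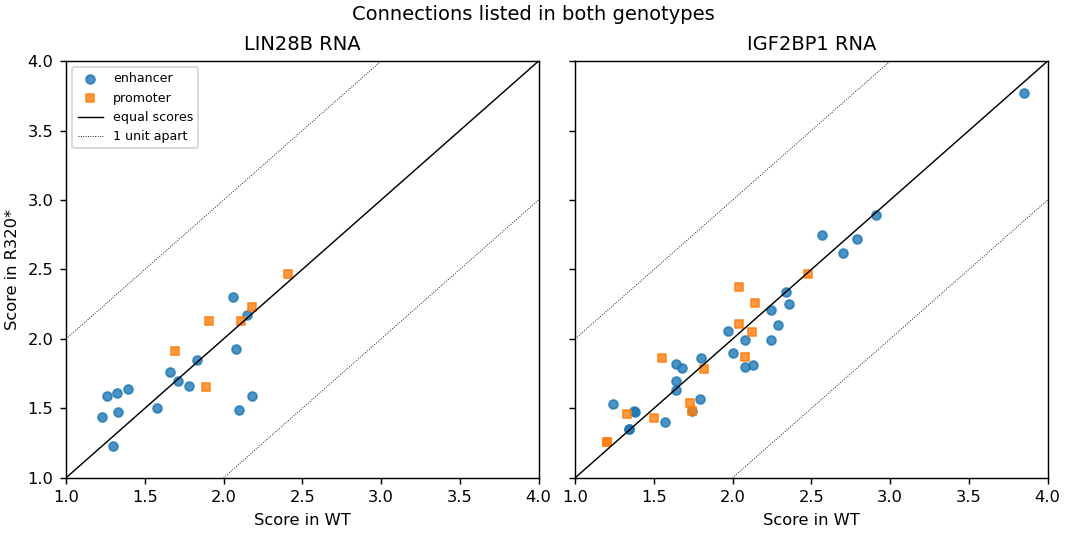
Score in R320* (y axis) against score in WT (x axis) for the 22 connections of LIN28B and the 42 of IGF2BP1 listed in both genotypes, with enhancers as circles and promoters as squares. The solid line marks equal scores and the dotted lines 1 unit of difference, which no point passes; the lone IGF2BP1 point at the top is the enhancer near AC091133.2.

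Other RNAs met many of the same elements in both genotypes. At the 22 elements that LIN28B met in R320* only, other RNAs had 62 connections in WT and 68 in R320*. At the 22 of IGF2BP1, they had 35 and 45. At LIN28B's elements listed in both genotypes, other RNAs had 54 and 56, and at IGF2BP1's 61 and 71. PDSS2 RNA, from a gene 2.07 Mb from LIN28B, met 10 of LIN28B's 22 elements in R320* only and was listed at 8 of them in both genotypes. At the BEND3 promoter, for example, it scored 1.89 in WT and 2.15 in R320*. ASCC3 RNA met 7 of the 22, 5 in both genotypes and 2 in WT only. At the CCNC promoter ASCC3 RNA scored 1.75 in WT and 1.45 in R320*. At the 3 CD24 enhancers the RNA of ATG5, an autophagy gene, was itself in R320* only (1.36 to 1.56), while PREP RNA met 2 of them in WT only.

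The RNAs most like the pair, by the share of elements met in common (Jaccard index over the elements of either genotype), came from nearby genes. For LIN28B these were PREP (0.35, 18 elements in common), ATG5 (0.27, 15) and ASCC3 (0.26, 22), a helicase gene 4.06 Mb away. They had 15 and 17, 15 and 18, and 48 and 43 connections in WT and R320*. For IGF2BP1 they were ZNF652, a zinc finger gene 232 kb away (0.58, 45 elements), HOXB3 (0.25, 18) and FAM117A (0.20, 20). ZNF652 RNA met 28 elements in WT and 50 in R320* (log2 ratio 0.84), FAM117A 37 and 48 (0.38), and HOXB3 20 and 16 (-0.32). ZNF652 met 9 of IGF2BP1's 22 elements in R320* only, and was listed at 5 of them in R320* only and at 4 in both. These 5 were at HOXB1, NGFR, PDK2 and SAMD14. FAM117A RNA also met 9 of the 22, 7 in both genotypes and 2 in R320* only. HOXB3 RNA met 6 of them, 4 in both genotypes and 2 in R320* only. At IGF2BP1's 42 elements in both genotypes ZNF652 met 35, and 17 of these in R320* only. Among them were all 7 HOXB elements (HOXB9 at 1.97, HOXB8 at 1.73), with the tied HOXB3 and HOXB6 elements counted separately. Within 5 Mb, 5 of 8 RNAs around LIN28B had more connections in R320* and 3 fewer. Around IGF2BP1, 7 of 12 had more, 3 fewer and 2 the same number. NMT1, counted among those 7, was listed in R320* only (0 connections in WT and 32 in R320*). For comparison, 58.5% of the 1293 RNAs listed in both genotypes and averaging at least 25 connections were higher in R320*. That set leaves out RNAs such as NMT1. The part of these neighbouring RNAs in the numbers of LIN28B and IGF2BP1 was not tested.

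Over all elements of the table, an element had a mean of 2.43 connections in WT and 2.50 in R320*. The 2 elements nearest LIN28B had 13 connections in WT and 10 in R320*, from 9 RNAs that include LIN28B's own. PREP RNA met the promoter element with 2.04 and 2.11, and ASCC3 with 1.74 and 1.84. SEC63, for an endoplasmic reticulum translocation factor, met both elements in WT only (1.30 and 1.54), and the zinc finger gene ZNF451 met both in R320* only (1.33 and 1.45). The 5 elements nearest IGF2BP1 had 7 and 6 connections from 6 RNAs, of which ZNF652 met the promoter element in both genotypes (2.04 and 1.69). Counting all elements within 100 kb of IGF2BP1 instead gave 30 and 32.

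The other genes of the pathway had medians near that of all RNAs, except the fetal erythroid list, whose median rests on 5 RNAs. All counts below leave out LIN28B and IGF2BP1, and the median log2 ratio over all 2137 RNAs of both genotypes was 0.09. Of 18 let-7 pathway genes 8 were listed, 5 with more connections in R320*, 2 with fewer and 1 equal, with a median log2 ratio of 0.11. DROSHA, the nuclease of the first microRNA cut, had 16 and 22, its partner DGCR8 14 and 19, and the argonaute gene AGO2 15 and 19. The exportin gene XPO5 had 65 and 65, and TUT4, which tails let-7 precursors, 31 and 30. Of 22 let-7 targets 6 were listed, 3 with more and 3 with fewer (median 0.03). The growth factor receptor gene IGF1R had 14 and 23, the cell cycle kinase gene CDK6 65 and 73, and ARID3A 38 and 31.

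The paralogues of IGF2BP1 had nearly equal numbers in both genotypes, with 75 and 73 for IGF2BP2 and 91 and 97 for IGF2BP3. Of 17 genes of the IGF2BP family and its bound RNAs, 7 were listed, 4 with more, 2 with fewer and CD44 in WT only (4), with a median of 0.07. BTRC, whose mRNA IGF2BP1 protein is known to stabilise, had 7 and 94 connections, 85 of its listed connections being trans. It was the only gene of these lists with at least a 2-fold difference past the minimum of 25, and its number was known when the list was made. Of 14 genes of the m6A machinery 6 were listed, 3 with more, 2 with fewer and YTHDC1 in WT only (12), with a median of 0.08. The eraser gene FTO had 19 and 22 and the writer subunit gene VIRMA 26 and 17. Of 16 genes of the fetal erythroid list 6 were listed, 4 with more, 1 with fewer and SOX6 in R320* only (4). The list holds adult globin genes and globin regulators besides fetal and embryonic globin genes, so its median is not that of a fetal programme. That median was 0.27 over 5 RNAs. The fetal and embryonic globin genes HBG2 (154 and 196) and HBE1 (152 and 192), both among these 5, lie side by side. HBG2 is nearly identical to HBG1.

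Of 16 K562 markers, 6 were listed as RNAs in the table (BCR, ABL1, HBG2, HBE1, LMO2 and TFRC), against 1 of 6 lymphoid (ZAP70), 0 of 5 myeloid and 0 of 4 epithelial or fibroblast markers. A gene absent from a contact table may still be expressed, so this is a weak check of the cell type.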

How the data were processed

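The tools named, per the submitters' processing notes, are cutadapt 1.12, BWA and bedtools, with hg38 as the build. The authors deposited 1 table of 115357 connections with a score per genotype and the R320* minus WT score. The score's formula and scale, and the way a genotype's 2 libraries became 1 value, are not stated in those notes or in the header. Fixation used DSG (2 mM, 45 minutes) and then formaldehyde (3%, 10 minutes), per the labels' protocols.

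Rows were taken by RNA symbol, and all backgrounds come from the whole table (python 3.11.15, pandas 2.3.3). Coordinates are printed 1-based, with the deposited starts taken as 0-based. Gene positions came from the RefSeq table of GRCh38.p14, which matched 2497 of 2637 RNAs, 70 of them by an older symbol. Called meant a fold of 2, for RNAs listed in both genotypes and averaging at least 25 connections, or a score difference of 1 unit. With pooled values no test was possible. The counting was checked on simulated data. Named items were drawn from a written rule: local connections, the highest and most changed scores, nearest genes with at least 3 elements, the 3 most alike RNAs, neighbours within 1 Mb and the lists. TSTD3, SESN1 and other elements named beyond it were chosen after their values were seen. The members and lists were chosen with earlier results of these data known.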

Additional observations from a re-analysis of the deposited data

How the results depend on the processing

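LIN28B and IGF2BP1 had more connections in R320* than in WT under every alternative that gave a value. Their log2 ratios were 0.09 to 1.32 and 0.13 to 1.00, beside a median of 0.09 over all RNAs at the main settings. The genes were picked with higher numbers known and most alternatives use the same connections again, so the common direction is no separate check. Of 36 alternative values, 5 moved. For numbers this meant leaving the exact 95% binomial interval of the main value or crossing 2-fold, for shares leaving that interval, for scores a shift of 1 SD over connections, and for elements at the gene a change of over 1.5 times. The interval treats connections as independent draws, although most WT connections are the same elements in R320* and neighbouring elements are not independent. It serves only as a yardstick, and a value inside it need not be near the main one. Both merged numbers moved only by reaching 2-fold. With connections merged within 1 Mb, LIN28B had 2 runs in WT and 5 in R320* (log2 ratio 1.32), and IGF2BP1 1 and 2 (1.00). With a minimum score of 1.5, the numbers were 19 and 25 for LIN28B (0.40) and 33 and 36 for IGF2BP1 (0.13), and IGF2BP1's share in both genotypes was 76.9%. Without connections over 1 Mb, an alternative chosen after seeing the data, they were 16 and 17 (0.09) and 43 and 55 (0.36). Counting elements within 100 kb of the gene gave IGF2BP1 30 connections in WT and 32 in R320*, in place of 7 and 6. Centred on the median of all shared connections, LIN28B's median score difference turned from 0.0341 to -0.00536. No trans connections existed, so the trans-only alternative gave no value. No paired analysis was possible because the deposited scores are pooled by genotype and carry no replicate numbers; for the same reason no library could be left out. Sequencing depth is unknown and scores near 1.2 can drop out of the list easily.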

Other observations

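Elements at other loci of the pathway met RNAs other than those of LIN28B and IGF2BP1. The 5 elements nearest IGF2BP3 had 20 connections in WT and 24 in R320* from 13 RNAs, and the 4 nearest IGF2BP2 had 12 and 10 from 9 RNAs. The 4 elements nearest HMGA1, a let-7 target coding for a chromatin architecture protein, had 21 and 29 connections from 12 RNAs. The 3 nearest MYC, whose mRNA IGF2BP1 protein binds, had 8 and 19 from 9 RNAs, with 7 in both genotypes. Of these 20 connections, 10 were trans. How many other loci differed as much was not counted. The 3 elements nearest the let-7 host gene MIRLET7BHG had 2 and 4 connections, and the 2 nearest the imprinted noncoding gene H19 had 2 and 3. IGF2 and HMGA2 were the nearest gene of 0 elements. None of these loci was met by LIN28B or IGF2BP1 RNA. For loci on another chromosome than the RNA's gene this follows from the 0 trans connections of both RNAs. These loci were set beside each other after the data were seen.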
